A study of Homo sapiens with 6 samples.

Results

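The genes described here are 33 interferon-stimulated genes, a list of antiviral effectors, nucleic acid sensors and transcription factors taken by gene symbol. Each was read from the probe sets that carry its symbol and no other in the platform annotation, and DDX58 was matched through its current symbol, RIGI. Of the 33 genes, 32 could be tested among 17841 genes in all, and IFI44 could not, because 0 of its 18 probe sets passed the filter on low values. The cells were HCT116, an established line from a human colorectal carcinoma that the titles give as HCT116 +/+. Their RNA was hybridised to exon arrays, which place several probe sets along each gene. All groups shared this line and a 12 h treatment. The control group (2 arrays) is labelled as untreated, while the series' design names the solvent DMSO. The second group (2 arrays) received Nutlin-3, labelled Nutlin 3R, which blocks the binding of MDM2 to p53. The third (2 arrays) received 5-fluorouracil (5FU), a pyrimidine analogue used in chemotherapy. No source used here gives the doses, and nothing says that replicates were separate cultures, so the spread between them may be technical.

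Interferons are secreted proteins that bind receptors on the cell surface and, through the JAK kinases, activate STAT transcription factors. Type I interferons act mainly through a complex containing STAT2 and IRF9 that binds the interferon-stimulated response element (ISRE), while STAT dimers bind the gamma-activated site (GAS). The genes they switch on sense foreign nucleic acid, degrade or sequester RNA, slow translation and attach the ubiquitin-like protein ISG15 to other proteins. p53, which Nutlin-3 stabilises, has been reported to activate some genes of this pathway, IRF9 among them.

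Promoter sequences were searched for the elements that these factors bind. In the RefSeq promoters of build GRCh38.p14, which run from 250 bases before to 50 bases after each gene's start, the ISRE core GAAANNGAAA was searched on both strands. A gene with several promoters was counted once if any of them held a match. The core was found in 17 of the 26 member genes that have a promoter there (65.4%) and in 4.38% of all 27305 genes, or, per promoter, in 21 of the members' 34 (61.8%) and in 3.57% of all 35116. The GAS core TTCNNNGAA, which reads the same on both strands, was found in 8 of the 26 member genes (30.8%) and in 9.38% of all genes, or in 9 of the 34 promoters (26.5%) and in 7.66% of all. HERC6, IFI16, DDX58, STAT2 and XAF1 had neither core in the windows searched. A stretch matching both cores was counted for both. IRF7, OAS2, OASL, IFIT2, MX2, USP18 and TRIM22 were not matched in that table.

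The following stretches, each 5′ to 3′ on the gene's strand, belong to genes whose values are given below. Only the core picked for printing is in capitals, and an overlapping match in the ISG15 stretch is not marked. The stretches show the ISRE core in genes of different roles and the GAS core in 2 of the transcription factors.
ISG15 (ISRE core, chr1:1013378-1013411, plus strand): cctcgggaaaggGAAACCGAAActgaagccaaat
OAS3 (ISRE core, chr12:112938319-112938352, plus strand): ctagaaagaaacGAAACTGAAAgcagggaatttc
IFIT1 (ISRE core in reverse, chr10:89392508-89392541, plus strand): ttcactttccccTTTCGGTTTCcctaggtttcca
IFIT3 (ISRE core in reverse, chr10:89327863-89327896, plus strand): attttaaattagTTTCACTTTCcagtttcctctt
IFIT5 (ISRE core in reverse, chr10:89414511-89414544, plus strand): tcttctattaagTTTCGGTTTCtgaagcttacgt
HERC5 (ISRE core in reverse, chr4:88457033-88457066, plus strand): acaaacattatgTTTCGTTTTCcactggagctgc
IRF1 (GAS core, chr5:132490877-132490909, minus strand): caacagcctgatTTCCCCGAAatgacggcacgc
IRF9 (GAS core, chr14:24161190-24161222, plus strand): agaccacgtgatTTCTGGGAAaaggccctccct

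No interferon-stimulated gene passed the test in any comparison, and no difference reached 2-fold. A gene was called when limma, fitted to the 3 groups together with Benjamini-Hochberg adjustment over all 17841 genes, gave an adjusted p below 0.05. In RNA from whole cultures, fewer cells that express a gene and less of its RNA per cell cannot be told apart. After 5FU, 24 of 32 members had higher values than control, with a median log2 difference of 0.198, where the median over all genes was 0.001. After Nutlin-3 the members were divided evenly, with 16 of 32 above control and a median of 0.014, where the median over all genes was 0.001. In 5FU against Nutlin-3, 24 of 32 were higher with 5FU and the median was 0.191, against 0.005 over all genes. The 5FU median depended on single arrays: it was 0.334 without 5FU replicate 1 and 0.301 without control replicate 1. It was 0.103 with all probe sets of a gene and 0.109 with only probe sets in the upper quartile of all.

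The count of members called was 0 of 32 in each comparison. Over all genes, Nutlin-3 against control gave 1.22%, the 5FU and control contrast 0.448%, and the contrast of the drugs 0.633%. At an unadjusted p below 0.05 there were 4 of 32 members (12.5%) for Nutlin-3, where all genes gave 10.2%. There were 7 of 32 (21.9%) for 5FU, where all genes gave 10.7%, and 5 of 32 (15.6%) for 5FU against Nutlin-3, where all genes gave 13.3%. The lowest adjusted p among members was 0.279 after Nutlin-3, 0.208 after 5FU and 0.116 between the drugs. The 95% interval of a member's difference reached a median of 0.42 to either side on the log2 scale. It extended beyond a 2-fold difference for 1 member after Nutlin-3, 5 after 5FU and 7 in 5FU against Nutlin-3.

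Both 5FU arrays lay above both control arrays for 12 of 32 members (37.5%), where 20.0% of all genes did so, and below them for BST2 alone (3.12%), where 18.0% of all genes did so. For Nutlin-3, 7 members (21.9%) lay wholly above control, with a background of 16.2%, and IFI35, IFIT3 and OAS3 (9.38%) lay wholly below, with a background of 18.0%. In 5FU against Nutlin-3, 16 members (50%) were wholly higher with 5FU, with a background of 25.2%, and RSAD2 alone (3.12%) was wholly lower, with a background of 20.8%. The groups stood in the order control, Nutlin-3, 5FU with no overlap for IRF9, DDX58, IFIT2 and ISG15, which is 4 of 32, where 2.09% of all genes had that order. The comparisons with control share the 2 control arrays, so their values are given side by side and are not independent of each other.

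**Figure D1:**
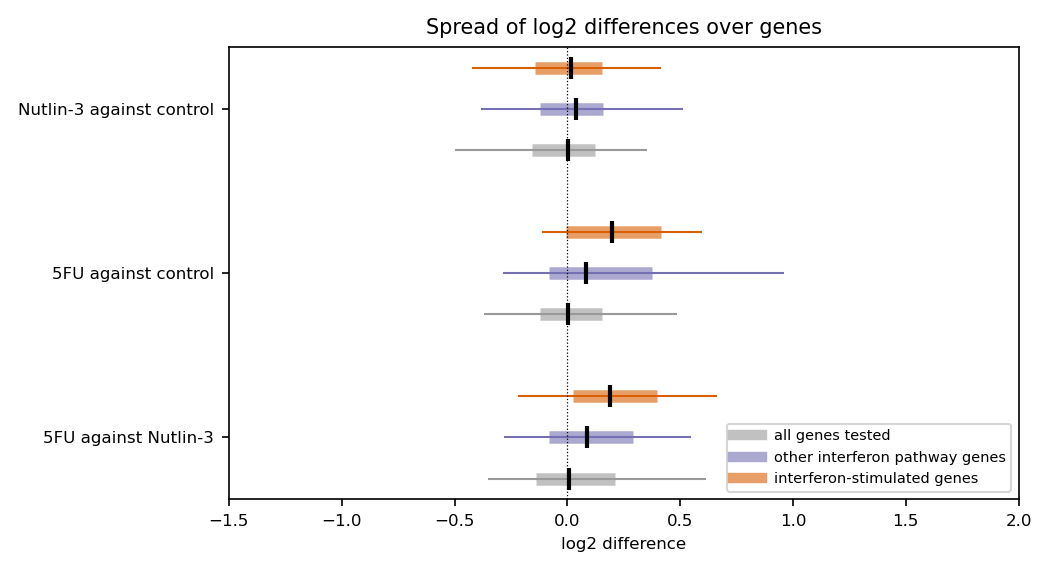
Log2 differences (horizontal axis) of all 17841 genes tested, 86 other interferon pathway genes and 32 interferon-stimulated genes in the 3 comparisons; black ticks are medians, thick bars span the 25th to the 75th percentile and thin lines the 5th to the 95th. The interferon-stimulated genes have medians of 0.198 for 5FU against control and 0.191 for 5FU against Nutlin-3, and of 0.014 for Nutlin-3 against control.

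A level below is the mean of the deposited log2 values of the probe sets used for that gene, and levels are compared between arrays for 1 gene and not between genes. Among the transcription factors, IRF9, the DNA-binding subunit of the complex that recognises the ISRE, had levels of 6.46 and 6.35 in control, 6.66 and 6.71 after Nutlin-3, and 6.89 and 6.94 after 5FU. All 3 groups were apart, with 5FU highest. The 5FU difference from control was 0.51 log2 units, with a 95% interval of 0.21 to 0.81 (adjusted p = 0.208), a 1.42-fold ratio, and the Nutlin-3 difference was 0.28 (-0.02 to 0.58, adjusted p = 0.537). All 15 of its used probe sets had higher means after 5FU than in control, by 0.02 to 1.53, and with the median over probe sets the 5FU difference was 0.326. The stretch of its promoter printed above carries a GAS core.

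IRF1, an activator induced by interferon gamma and by other stimuli, had levels of 6.62 and 6.28 in control, 6.32 and 6.45 after Nutlin-3, and 6.93 and 7.12 after 5FU. Control and Nutlin-3 overlapped, and both 5FU arrays lay above them. The difference was 0.57 for 5FU against control (0.18 to 0.96, adjusted p = 0.273) and 0.64 for 5FU against Nutlin-3 (0.25 to 1.03, adjusted p = 0.169), while Nutlin-3 differed from control by -0.07 (-0.46 to 0.32, adjusted p = 0.955). Of its 24 used probe sets, 19 had higher means after 5FU than in control and 12 after Nutlin-3. Like IRF9, this gene has a GAS core and no ISRE core in the promoter searched.

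STAT2, which acts in the complex with IRF9, had levels of 6.88 and 6.73 in control, 7.10 and 7.50 after Nutlin-3, and 6.98 and 7.15 after 5FU. Both drugs lay above control, and the drugs overlapped. It was 0.50 higher after Nutlin-3 (0.08 to 0.91, adjusted p = 0.374), with 28 of 29 used probe sets above control, but 0.294 higher without Nutlin-3 replicate 2. It was 0.26 higher after 5FU (-0.15 to 0.67, adjusted p = 0.726), with 22 of 29. IRF7, a regulator of interferon gene expression, had differences of 0.15 after Nutlin-3 and 0.10 after 5FU, with 5FU overlapping control.

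**Figure D2:**
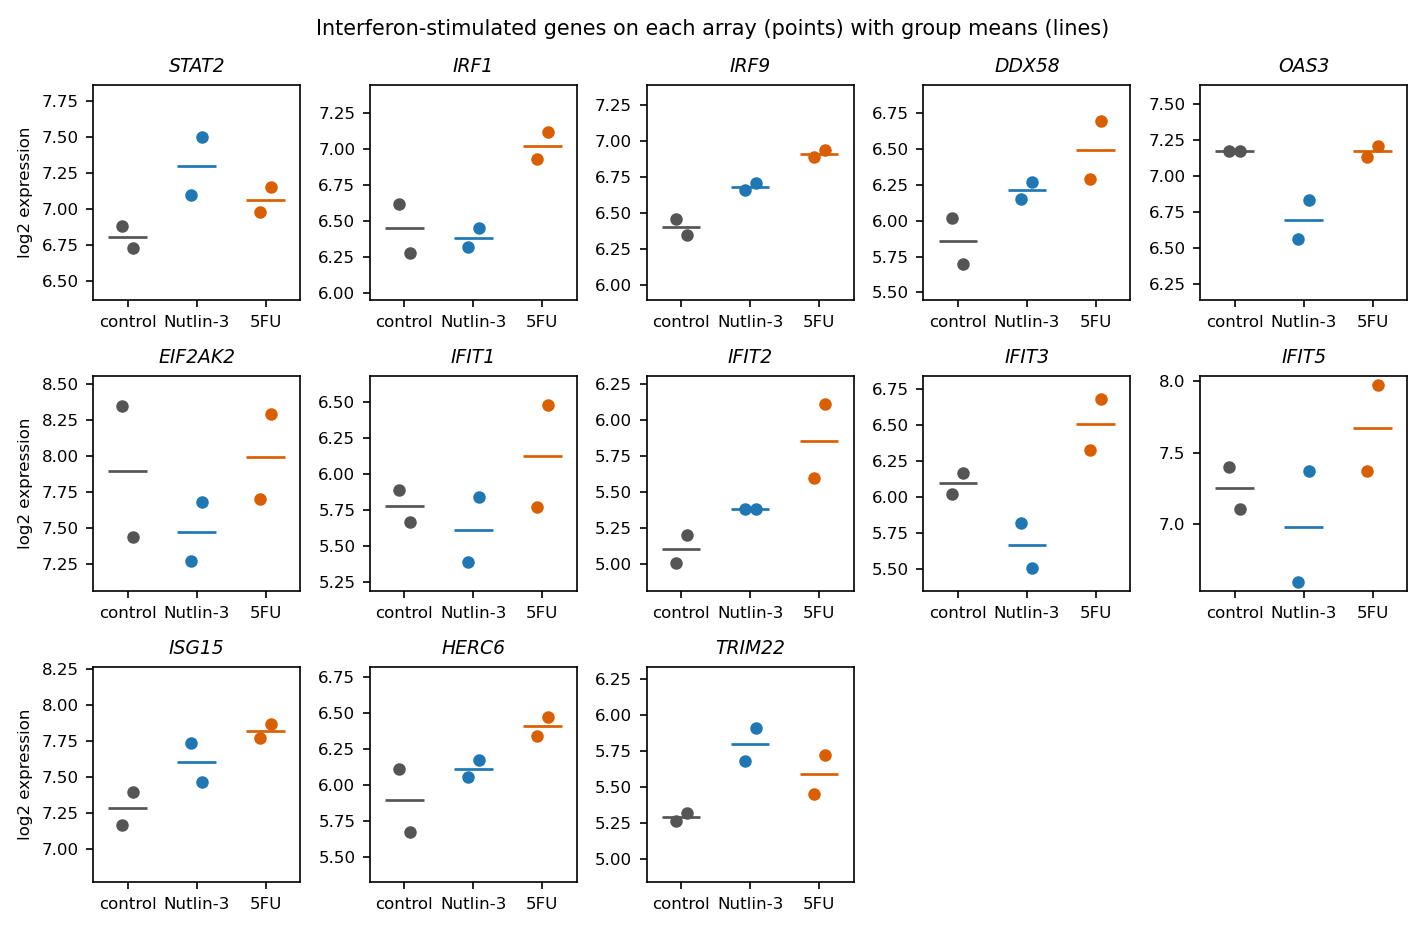
Log2 expression of 13 interferon-stimulated genes on each array, 1 panel per gene with the same span on every vertical axis; points are arrays and lines the means of 2 arrays in control, Nutlin-3 and 5FU. IRF9, DDX58, IFIT2 and ISG15 have 3 separate groups with 5FU highest, while EIF2AK2 has control arrays 0.91 apart.

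Of the 4 sensors of nucleic acid, DDX58 and IFIH1 had 5FU arrays wholly above control, where 20.0% of all genes did so. In all comparisons, 0 of the 4 were called. DDX58, the RIG-I helicase that detects viral RNA, had levels of 6.02 and 5.70 in control, 6.15 and 6.27 after Nutlin-3, and 6.29 and 6.69 after 5FU. The order of the groups was the same as for IRF9, with little room between Nutlin-3 and 5FU. The 5FU difference from control was 0.63 (0.19 to 1.08, adjusted p = 0.287), a 1.55-fold ratio, and the Nutlin-3 difference was 0.35 (-0.09 to 0.80, adjusted p = 0.644). Of its 14 used probe sets, 11 were above control after each drug.

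IFIH1, the related RNA sensor MDA5, differed from control by 0.29 after 5FU (-0.02 to 0.61, adjusted p = 0.512) and by 0.03 after Nutlin-3. DDX60, a helicase linked to RIG-I signalling, had control arrays at 6.21 and 5.41, a gap of 0.79 that overlapped the arrays of both drugs. IFI16, a sensor of DNA, was read from 4 used probe sets of 24 and had differences of -0.17 after Nutlin-3 and -0.11 after 5FU, smaller than the gap between its control arrays.

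Among the effectors that act on RNA or on translation, 7 of 10 were wholly higher with 5FU than with Nutlin-3 (25.2% of all genes were), with a median difference of 0.477, and 0 of 10 were called in any comparison. Some of the 7 were barely apart. The nearest Nutlin-3 and 5FU arrays read 7.37 and 7.37, as rounded, for IFIT5, 7.68 and 7.70 for EIF2AK2, and 6.40 and 6.45 for OAS2. IFIT3, one of the IFIT proteins that bind viral RNA or each other, had levels of 6.02 and 6.17 in control, 5.82 and 5.51 after Nutlin-3, and 6.33 and 6.68 after 5FU. Control stood between the drugs with no overlap. The 5FU against Nutlin-3 difference of 0.84 (0.41 to 1.26, adjusted p = 0.116) was the largest of any member. It was read from 2 of 6 probe sets: with all 6 this difference was 0.229 (adjusted p = 0.69), and the Nutlin-3 difference from control turned from -0.43 to 0.055. With quantile normalization the gene passed (0.83, adjusted p = 0.0385). Its promoter, like those of IFIT1 and IFIT5, holds an ISRE core.

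IFIT2 had levels of 5.01 and 5.20 in control, 5.38 on both Nutlin-3 arrays, and 5.60 and 6.11 after 5FU. The groups did not overlap. Its 5FU difference from control of 0.75 (0.30 to 1.2, adjusted p = 0.217) was the largest of that comparison, a 1.68-fold ratio. It came from 4 used probe sets of 10, of which 3 were above control, with differences from -0.23 to 2.03. The Nutlin-3 difference was 0.27 (-0.18 to 0.72, adjusted p = 0.773), with 2 of 4 above control. Without 5FU replicate 2 the 5FU difference from control was 0.49.

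IFIT5 had levels of 7.40 and 7.11 in control, 6.60 and 7.37 after Nutlin-3, and 7.37 and 7.97 after 5FU. Replicates of each drug lay far apart, and control overlapped both. The drugs differed by 0.69 (-0.02 to 1.39, adjusted p = 0.387), and by 0.304 without Nutlin-3 replicate 1, 0.384 without 5FU replicate 2 and 1.07 without Nutlin-3 replicate 2. IFIT1 had levels of 5.89 and 5.67 in control, 5.39 and 5.84 after Nutlin-3, and 5.77 and 6.48 after 5FU, and here all 3 groups overlapped with at least 1 other. The 5FU against Nutlin-3 difference was 0.51 (-0.11 to 1.13, adjusted p = 0.473). It was 0.152 without 5FU replicate 2, 0.286 without Nutlin-3 replicate 1, 0.869 without 5FU replicate 1 and 0.971 with the median over probe sets.

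OAS3 makes the oligoadenylates that activate the antiviral ribonuclease RNase L. Its levels were 7.17 on both control arrays, 6.56 and 6.83 after Nutlin-3, and 7.13 and 7.21 after 5FU. Both Nutlin-3 arrays lay below all others, and 5FU overlapped control. Nutlin-3 differed from control by -0.47 (-0.82 to -0.13, adjusted p = 0.279), with 6 of 35 used probe sets above control, and 5FU differed by 0.00 (-0.34 to 0.35, adjusted p = 0.996). The drugs differed by 0.48 (0.14 to 0.82, adjusted p = 0.233), with 31 of 35 probe sets higher with 5FU.

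OASL, a relative of the OAS enzymes that lacks their synthetic activity, was 0.41 above control after 5FU (0.09 to 0.73, adjusted p = 0.337), with 8 of 10 probe sets higher. OAS1 and OAS2 had differences between -0.14 and 0.10 after either drug, and ISG20, an exonuclease, between -0.03 and 0.07. EIF2AK2, the kinase PKR that shuts down translation initiation, had levels of 8.35 and 7.44 in control, 7.27 and 7.68 after Nutlin-3, and 7.70 and 8.29 after 5FU. Its control arrays enclosed every 5FU value. The drugs did not overlap and differed by 0.52 (-0.26 to 1.31, adjusted p = 0.561), with 23 of 25 probe sets higher with 5FU. That difference was 0.226 without 5FU replicate 2, 0.319 without Nutlin-3 replicate 1 and 0.819 without 5FU replicate 1.

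**Figure D3:**
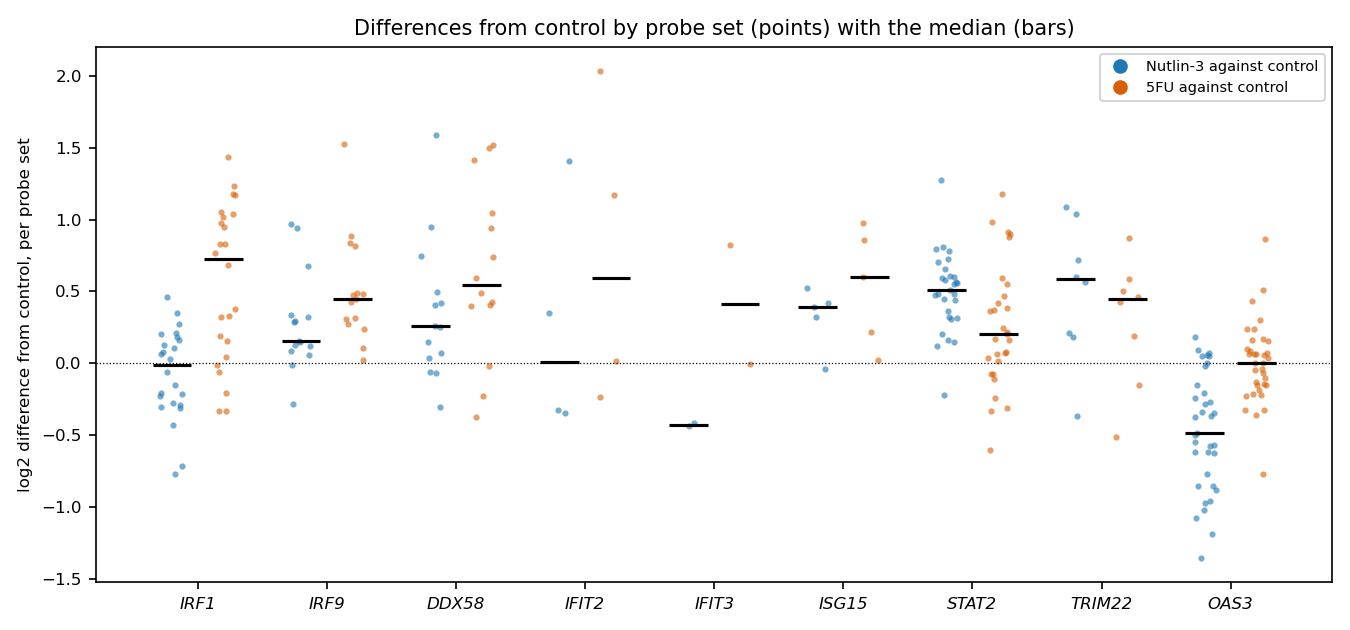
Log2 difference from control of each used probe set (points, vertical axis) of 9 interferon-stimulated genes after Nutlin-3 and after 5FU, with bars at the medians. All 15 probe sets of IRF9 lie above 0 after 5FU, and 6 of the 35 of OAS3 lie above 0 after Nutlin-3.

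The 4 genes of the ISG15 system all had means above control after 5FU, by 0.30 to 0.54 on the log2 scale, where 50.3% of all genes did. For 2 of the 4, ISG15 and HERC6, both 5FU arrays lay above both control arrays, where 20.0% of all genes did so. After 5FU 0 of 4 were called, where 0.448% of all genes were. ISG15, the ubiquitin-like modifier itself, had levels of 7.17 and 7.40 in control, 7.74 and 7.47 after Nutlin-3, and 7.77 and 7.87 after 5FU. The groups were apart, though Nutlin-3 came close to each of the others. The difference was 0.54 after 5FU (0.16 to 0.91, adjusted p = 0.286), with 5 of 5 probe sets higher, and 0.32 after Nutlin-3 (-0.05 to 0.70, adjusted p = 0.583), with 4 of 5. Its promoter holds the ISRE core printed above.

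HERC6, a HERC-family ubiquitin ligase, had levels of 6.11 and 5.67 in control, 6.05 and 6.17 after Nutlin-3, and 6.34 and 6.47 after 5FU. Nutlin-3 overlapped control, and 5FU lay above both. The 5FU difference was 0.51 (0.09 to 0.93, adjusted p = 0.368), with 24 of 25 probe sets above control, and was 0.287 without control replicate 2. HERC5, the main ligase for ISG15, had a difference of 0.44 after 5FU (-0.28 to 1.16, adjusted p = 0.739) with control arrays at 6.92 and 6.04, a gap of 0.88 that overlapped the 5FU arrays. USP18, which removes ISG15 and restrains the interferon receptor, had differences of 0.30 after 5FU and -0.11 after Nutlin-3, with adjusted p of 0.771 and 0.95. Its arrays of both drugs overlapped control.

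TRIM22, a TRIM-family protein with antiviral activity, had levels of 5.26 and 5.32 in control, 5.68 and 5.91 after Nutlin-3, and 5.45 and 5.72 after 5FU. Both drugs lay above control, and they overlapped each other. Its Nutlin-3 difference of 0.51 (0.14 to 0.87, adjusted p = 0.28) was the largest of that comparison, with 7 of 8 probe sets above control, and was 0.314 with all probe sets. Its 5FU difference was 0.30 (-0.07 to 0.66, adjusted p = 0.598). TRIM22 and STAT2 were the members with the 2 largest differences after Nutlin-3, and both had smaller values with 5FU, by -0.21 (-0.57 to 0.16) and -0.24 (-0.65 to 0.18), intervals that include 0.

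The GTPases and most of the membrane and other effectors had smaller differences than TRIM22. MX1 and MX2, dynamin-like GTPases that block viruses, had differences between -0.08 and 0.08 after either drug, and their intervals lay within -0.43 and 0.52. MX2 was read from 9 of 22 probe sets, and whether its values lay above array background was not tested. IFI6 and IFI27, mitochondrial proteins, had 5FU differences of 0.07 and 0.14. RSAD2, the radical-SAM enzyme viperin, had a difference of 0.17 after Nutlin-3 and -0.10 after 5FU. BST2, which tethers budding virions, had 5FU arrays at 6.54 and 6.49, below control arrays at 6.64 and 6.78, a difference of -0.20 (-0.60 to 0.21, adjusted p = 0.822). IFI35 had a difference of -0.28 after Nutlin-3 (-0.63 to 0.06, adjusted p = 0.622) and XAF1, an antagonist of XIAP, differences of -0.06 and 0.01. IFI44L was read from 2 of 21 probe sets and had replicates up to 0.69 apart.

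**Figure D4:**
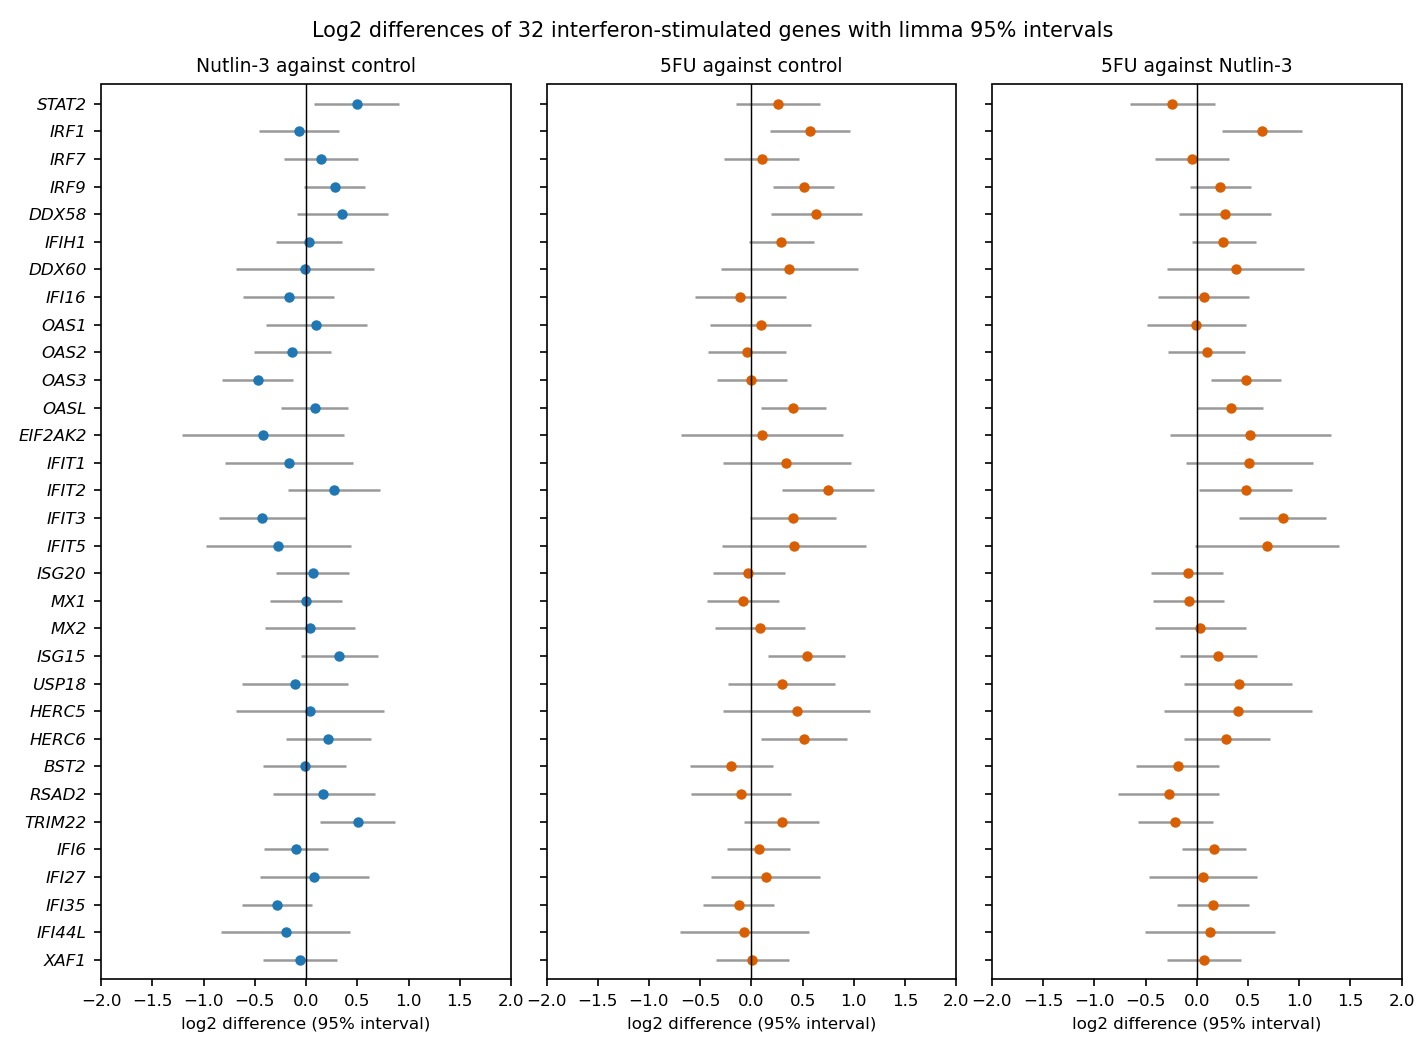
Log2 differences (points) of 32 interferon-stimulated genes with limma 95% intervals (lines) in the 3 comparisons; zero is marked by a vertical line. For 5FU against control 24 of 32 points lie above 0, and 0 of 32 genes passed the adjusted threshold in any panel.

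Members were also set side by side by whether the promoter searched holds an ISRE core. The 16 tested members with the core had a median 5FU difference from control of 0.12 (-0.20 to 0.54 over members), and the 9 with a promoter and no core had a median of 0.26 (-0.12 to 0.63). For 5FU against Nutlin-3 the medians were 0.24 with the core and 0.16 without, and for Nutlin-3 against control they were -0.01 and 0.10. These are descriptions of the window searched, with no test.

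Of 104 other genes of the interferon pathway, 86 were tested, and 2 rose after Nutlin-3 and 3 after 5FU, with 0 called lower in either. Over all genes, 1.22% and 0.448% were called in either direction. The list and its parts were chosen with earlier results of these data known, so their counts are descriptions and no test. TLR3, a receptor for double-stranded RNA, had levels of 5.51 and 5.05 in control, 6.70 and 7.12 after Nutlin-3, and 7.26 and 7.62 after 5FU. It rose by 1.63 after Nutlin-3 (adjusted p = 0.0258) and by 2.16 after 5FU (adjusted p = 0.026). TAP1, the peptide transporter of antigen presentation, rose by 1.22 after each drug (adjusted p = 0.0211 and 0.0379). STAT3, which carries signals of interleukins and of some interferon receptors, had levels of 8.67 and 8.57 in control, 9.24 and 9.46 after Nutlin-3, and 9.57 and 9.77 after 5FU. It rose by 1.05 after 5FU (adjusted p = 0.0451) and differed by 0.74 after Nutlin-3 (adjusted p = 0.0865). Each of these calls was lost without any 1 array of the 2 groups compared. The adjusted p then lay between 0.133 and 0.388 for STAT3 after 5FU, between 0.0694 and 0.203 for TLR3 and between 0.0872 and 0.304 for TAP1. After Nutlin-3 it lay between 0.0608 and 0.0931 for TLR3 and between 0.0553 and 0.0966 for TAP1.

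The rest of the pathway gave 0 calls. Of 13 interferon genes, 3 were tested, IFNG, IFNL1 and IFNA8, with differences between -0.21 and 0.12 after either drug. IFNG and IFNA8 were each read from 2 used probe sets and IFNL1 from 7. Interferon genes that could not be tested, IFNB1, IFNL2 and IFNL3 among them, have no difference here. The 2 chains of the type I receptor had differences of 0.00 (IFNAR1) and -0.33 (IFNAR2) after Nutlin-3 and of 0.43 and -0.37 after 5FU, with adjusted p between 0.694 and 0.999. IRF3, the factor that turns sensor signals into interferon expression, differed by -0.20 after Nutlin-3 and -0.30 after 5FU, and IRF5, a known p53 target, by 0.20 and -0.06, with adjusted p of at least 0.486 for both genes. Of 51 tested interferon-stimulated genes outside the members, TAP1 among them, 35 were above control after 5FU, 19 of them with no overlap (37.3%, against 20.0% of all genes), and their median difference was 0.173, against 0.001 over all genes. After Nutlin-3, 30 of the 51 were above control, 15 of them with no overlap (29.4%, against 16.2% of all genes). Their median difference was 0.046.

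Replicates set the limit on these values. Gaps between the 2 arrays of a group had a median over members of 0.23 in control, 0.23 after Nutlin-3 and 0.17 after 5FU, where all genes had 0.19, 0.21 and 0.16. The difference was larger than the gaps of both groups for 9 of 32 members after Nutlin-3 (28.1%) and 12 after 5FU (37.5%), where all genes gave 23.6% and 26.6%. Between the drugs it was larger for 9 (28.1%), a lower share than the 35.1% of all genes. Array medians over all probe sets lay between 4.73 and 4.78. The counts of genes called over the whole table moved with single arrays: leaving out 1 array of the groups compared gave 5 to 131 genes for Nutlin-3 against control, 1 to 4 for 5FU against control and 3 to 51 for 5FU against Nutlin-3, in place of 217, 80 and 113. An exact two-sided permutation test of 2 arrays against 2 cannot go below 0.333, and limma, which shares variances across genes, was fitted with 3 residual degrees of freedom.

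Colonic epithelial markers, blood cell markers and fibroblast markers were read beside the members. The mean level over 12 of 12 epithelial markers lay between 8.25 and 8.33 in control, 8.39 and 8.39 after Nutlin-3, and 8.46 and 8.50 after 5FU. Single epithelial markers spanned 5.52 to 11.31. Keratins KRT8 and KRT18 lay between 10.94 and 11.31 on all arrays, while KRT20 and VIL1 lay between 5.52 and 5.89. After 5FU, 11 of the 12 epithelial markers were above control, with a median difference of 0.13 and 0 called. Over 10 of 12 blood cell markers the mean lay between 6.28 and 6.40 after 5FU and between 6.32 and 6.47 in control, with 3 of 10 above control. The mean over 8 of 10 fibroblast markers lay between 6.27 and 6.34 after 5FU and between 6.23 and 6.39 in control. The part of the epithelial markers' shift in the members' values was not tested. On single arrays the median level over members lay between 6.27 and 6.50, close to the means of the blood cell and fibroblast markers. Whether members at such levels were expressed above array background was not tested.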

How the data were processed

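RNA from HCT116 was measured on 6 arrays in 3 groups of 2. The deposited log2 values per probe set were made with RMA, per the submitters' processing notes, which name no version or settings. RMA keeps no counts or detection calls. Separately, the number of arrays limits precision. The table held 1411399 probe sets; the platform annotation gave 357604 of them 1 symbol and 15322 several, which named no gene. Of 19560 symbols, 2966 were updated and 122 kept through the RefSeq gene table.

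A gene's value was the mean of its probe sets whose mean exceeded the median of all probe sets (4.73), with at least 2 of them. Of the members' 662 probe sets, 403 were used. For 12 members no more probe sets were used than left out. limma 3.58.1 (lmFit, eBayes) in R 4.3.3 was fitted to 3 groups with 3 residual degrees of freedom, without a block, and tested on simulated data. Members and lists were chosen with earlier results of these data known. Array-by-array values are given for the 6 members with the largest differences in each comparison and those whose groups did not overlap; from the pathway list, the called genes and IFNAR1, IFNAR2, IRF3 and IRF5 were named. Alternatives were other rules for probe sets, normalization, variance, samples, a replicate block and leaving out each array. The replicate numbers did not pair the samples across all 3 groups. Deviations of same-numbered arrays correlated across genes at -0.56 (control and Nutlin-3), -0.52 (control and 5FU) and 0.63 (Nutlin-3 and 5FU). Same-numbered arrays of the drugs thus deviated alike, and those of control the other way.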

Additional observations from a re-analysis of the deposited data

How the results depend on the processing

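The count of members called stayed at 0 of the members tested in every comparison under every alternative but 2: the crossed pairing below, and quantile normalization, which called 1 (IFIT3) for 5FU against Nutlin-3.

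Counts over all genes, 217, 80 and 113 for Nutlin-3 against control, 5FU against control and 5FU against Nutlin-3, moved more. They were 381, 177 and 297 with arrays centred on their medians, 514, 242 and 416 with quantile normalization, and 380, 151 and 234 with upper-quartile probe sets. With the median over probe sets 5FU gave 39 against control and 69 against Nutlin-3, and all probe sets gave 69 for the latter. With the replicate number as a block limma's counts were 2, 1 and 0, and 0 members were called. At an unadjusted p below 0.05 that block gave 1441, 1444 and 1821 genes. It covered all the groups at once, and the numbers did not pair control with the drugs. A block on the drug groups alone was not fitted. Since control deviations ran against both drugs, a crossed pairing chosen after seeing the data gave 1788, 1882 and 2821 genes, with 3, 7 and 7 members. Leaving out 1 array gave 5 to 149, 1 to 63 and 3 to 104.

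The members' median for 5FU against control (0.198) was 0.103 with all probe sets, 0.109 with upper-quartile probe sets, 0.173 with centred arrays, 0.176 with quantile normalization and 0.273 with the median over probe sets, and 0.144 to 0.334 leaving out 1 array. For 5FU against Nutlin-3 (0.191) it was 0.161 centred, 0.144 quantile normalized, 0.264 with the median over probe sets and 0.156 to 0.257 leaving out 1 array. For Nutlin-3 against control (0.014) it was 0.036 with at least 4 probe sets, -0.047 with the median over probe sets and -0.029 to 0.056 leaving out 1 array, with both signs.

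Of the 19 members without array-by-array values, up to 7 changed sign under 1 alternative after Nutlin-3, up to 7 after 5FU and up to 5 between the drugs. Of the genes named by the rule, these changed sign. IFIT3 after Nutlin-3 was 0.055 with all probe sets. OAS3 after 5FU was -0.021 with centred arrays, -0.024 with quantile normalization, -0.135 with the median over probe sets and -0.057 with upper-quartile probe sets. IFNAR2 between the drugs was 0.122 with all probe sets and 0.012 with the median over probe sets, which also gave IRF5 after 5FU 0.015 and TAP1 between the drugs 0.019. Leaving out 1 array, EIF2AK2 ranged from -0.355 to 0.556 after 5FU and from -0.877 to 0.033 after Nutlin-3, and IFIT1 from -0.016 to 0.701 and from -0.392 to 0.056. After Nutlin-3 HERC6 ranged from -0.0076 to 0.437, IFIT5 from -0.652 to 0.114, IFNAR1 from -0.309 to 0.317 and IRF1 from -0.241 to 0.099. OAS3 after 5FU ranged from -0.035 to 0.043, and between the drugs IFNAR2 ranged from -0.326 to 0.248 and TAP1 from -0.049 to 0.047. The cause of these changes was not tested.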

Other observations

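IFI44, the member that could not be tested, had mean log2 values over its 18 probe sets of 2.74 and 2.55 in control, 2.70 and 2.78 after Nutlin-3, and 2.55 and 2.82 after 5FU. The groups overlapped, and its highest probe-set mean of 3.98 lay below the filter of 4.73. IFIT2 was uneven along the gene: its 4 used probe sets differed from control by -0.23 to 2.03 after 5FU and by -0.34 to 1.41 after Nutlin-3. DDX58 had the same kind of spread over 14 probe sets, from -0.37 to 1.52 after 5FU and from -0.31 to 1.59 after Nutlin-3. Among the interferon-stimulated genes outside the members, DTX3L, a ubiquitin ligase partner of PARP9, differed by 0.79 after 5FU and -0.09 after Nutlin-3, and SAMD9, an antiviral restriction factor, by 0.98 and 0.13; both were picked after their values were seen, and neither passed the test (lowest adjusted p = 0.256 over the 3 comparisons).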
